A study of Mus musculus with 5 samples.

Results

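Astrocytes release proteins that build, mature or restrain synapses, and 10 genes for such factors were followed here: Sparc, Sparcl1, Thbs1, Thbs2, Gpc4, Gpc6, Chrdl1, Ncan, Bdnf and Tgfb2. They were taken by symbol, and all 10 were found among the 18783 genes of the authors' deposited table. The libraries came from primary astrocyte cultures of C57BL/6 mouse pups (P0-P1), harvested at day 12 in vitro. One library was from cells given 1 µM amyloid-β (Aβ) with 50 µM DFMO for 5 days (Aβ+DFMO), 2 were from cells given 1 µM Aβ alone for 5 days (Aβ) and 2 were from untreated cells (Control). Treatment began on day 7 in vitro, and all cultures were grown in horse and fetal bovine serum. DFMO (difluoromethylornithine) blocks ornithine decarboxylase, the first enzyme of polyamine synthesis. Whether replicate libraries were grown as separate cultures is not stated in the labels, so the p-values may measure technical spread.

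Synapse formation by astrocytes runs through several secreted families. Thrombospondins (Thbs1, Thbs2) act on the calcium channel subunit α2δ-1 of neurons and give structurally complete synapses that are silent on the receiving side. Hevin (Sparcl1) bridges neurexin and neuroligin across the cleft, and its relative SPARC opposes it. The glypicans GPC4 and GPC6 recruit AMPA receptors to young synapses, and the BMP antagonist chordin-like 1 (Chrdl1) drives their later exchange for the calcium-impermeable kind. Neurocan (Ncan) is a chondroitin sulfate proteoglycan of brain matrix, BDNF strengthens synapses through the receptor TrkB, and TGF-β2 (Tgfb2) signals through SMAD proteins.

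Each gene has a single normalized mean for each group, made by the authors, so no spread between libraries can be shown. The error given beside a log2 ratio is the standard error implied by the authors' p-value. The Aβ+DFMO library held 4825677 reads, against 49676004 and 49020833 in the Control libraries, and 84.4% of the reads in Aβ+DFMO lay within exons, against 84.9% and 84.5% in Control. The depth of the Aβ libraries is not used here. One read was worth about 7.45 normalized units in the Aβ+DFMO library, which gives the 10 genes an estimated 91.0 (Bdnf) to 17360 (Sparc) reads there. Tests against Aβ+DFMO take the spread of that single library from the other groups. Astrocyte markers were high: summed over 9 of 9 listed genes, the authors' deposited table held 126787 units in Aβ+DFMO, 159441 in Aβ and 159749 in Control, with Gfap at 41383, 57495 and 57209 units in those groups. Genes listed as markers of other cells had signal too. Mural markers summed to 135580 units in Aβ+DFMO, 120565 in Aβ and 119346 in Control in the authors' deposited table, and oligodendrocyte lineage markers to 15657, 31708 and 31740 units. Microglia and macrophage markers summed to 5303, 7167 and 12754 units in the same order of groups in the authors' deposited table, fibroblast markers to 19428, 20330 and 19089, neuronal markers to 13064, 12926 and 13278 and ependymal markers to 2467, 4567 and 4659. Endothelial markers summed to only 134, 204 and 183 units there, and Pecam1, Cldn5 and the neuronal marker Rbfox3 had no row. A few genes carried several of these sums. In Aβ+DFMO, Acta2 stood at 81013 units, Tagln at 47688 and Cnn1 at 6178, but Myh11 at 358 and Rgs5 at 343. Map2 stood at 11536 units there, Tubb3 at 1066, Syt1 at 186 and Snap25 at 30. Foxj1 held 2303 of the ependymal units. Among fibroblast markers Col1a1 had 7885 units, but Dcn 67 and Lum 15. The sums therefore do not measure the amount of each cell type.

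In Aβ+DFMO against Aβ, Thbs1 rose and Ncan fell, and the other 8 genes did not pass an adjusted p of 0.05 in the authors' deposited table. In Aβ against Control none of the 10 passed. The percent of all genes that passed was 9.18% in Aβ+DFMO against Aβ (1724 genes) and 0.287% in Aβ against Control (54 genes). Higher calls made up 4.0% and lower calls 5.18% of the genes in Aβ+DFMO against Aβ. Among the 11737 genes with a mean over the groups of at least 200 units, a range that holds all 10, the first share was 14.4%. A count of 2 in 10 is near this background. The median log2 ratio of the 10 genes was 0.17 in Aβ+DFMO against Aβ, beside 0.01 for all genes, and 0.02 in Aβ against Control, beside 0.00. With the trend of the log2 ratio with transcript GC content taken out, as described further on, the median of the 10 genes in Aβ+DFMO against Aβ was 0.10. Both comparisons use the Aβ libraries.

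**Figure D1:**
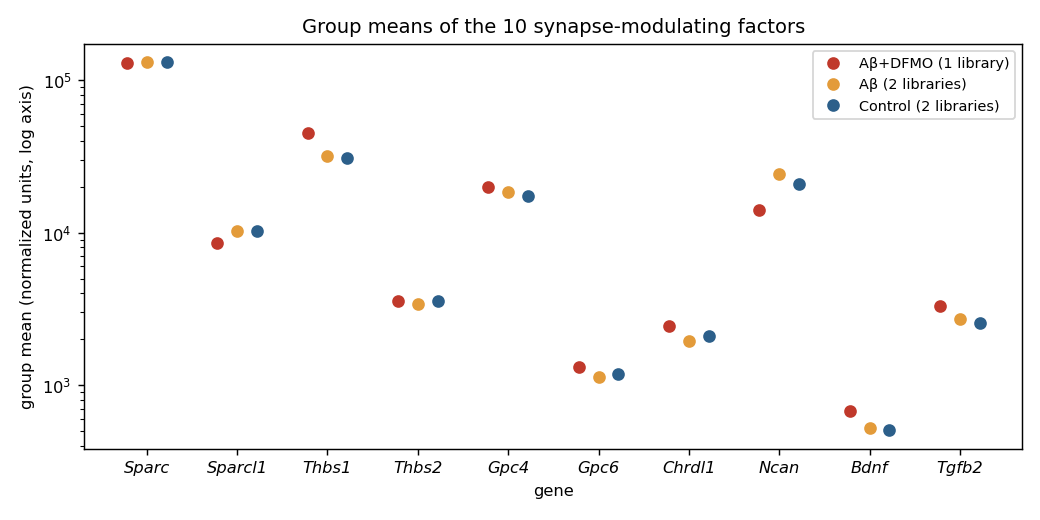
Group means of the 10 genes in normalized units on a log axis, with 1 point for each group (Aβ+DFMO, Aβ, Control) and no error bars. Thbs1 is highest and Ncan lowest in Aβ+DFMO among the groups, and the 3 points of Sparc lie almost level at the top.

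Coding sequence of 3 of the genes is shown first because base composition varied along with the Aβ+DFMO ratios, as described further on. Each line is a 90-base stretch of 1 coding exon, chosen as the stretch whose GC content lies nearest to that of the whole coding sequence, with G and C in capitals. The stretch of Ncan, a gene rich in GC that was lower in Aβ+DFMO, is from chr8:70115227-70115316 (minus strand, GRCm38), in exon 3 of its longest coding transcript. That of Thbs1 is from chr2:118113083-118113172 (plus strand), in exon 3. The stretch of Chrdl1, whose whole transcript is low in GC, is from chrX:143368352-143368441 (minus strand), in exon 3. GC content was 60.0%, 54.4% and 47.8% in these stretches. The GC trend described further on uses whole transcripts, which held 55.1%, 49.9% and 41.0% GC for Ncan, Thbs1 and Chrdl1.
Ncan: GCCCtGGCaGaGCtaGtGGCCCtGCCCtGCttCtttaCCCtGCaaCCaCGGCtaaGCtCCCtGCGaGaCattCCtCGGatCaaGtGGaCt
Thbs1: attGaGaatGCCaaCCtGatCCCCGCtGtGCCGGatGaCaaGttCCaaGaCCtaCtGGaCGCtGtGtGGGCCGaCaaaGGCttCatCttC
Chrdl1: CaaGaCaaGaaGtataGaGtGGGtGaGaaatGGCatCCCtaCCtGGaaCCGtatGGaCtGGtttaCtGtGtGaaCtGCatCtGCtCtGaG

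Thbs1, whose product thrombospondin-1 starts the assembly of synapses, lies on chromosome 2 at 118111876 to 118127133 (plus strand, GRCm38). Its mean in the authors' deposited table was 44938 units in Aβ+DFMO, 31749 in Aβ and 30946 in Control. The Aβ+DFMO library thus stood at 1.42 times the Aβ mean, while Aβ and Control lay close together. The log2 ratio of Aβ+DFMO to Aβ in the authors' deposited table was 0.50 (implied standard error 0.0922, adjusted p = 7.90e-06), which ranked 130 of 18783 by p. That of Aβ to Control was 0.04 (implied standard error 0.0740) and was not called. About 6029 reads stood behind the Aβ+DFMO value. Thbs2, its close relative on chromosome 17 at 14665500 to 14694235 (minus strand), had means of 3540 units in Aβ+DFMO, 3401 in Aβ and 3550 in Control in the authors' deposited table. Its 3 values lay close together: the log2 ratio of Aβ+DFMO to Aβ was 0.06 in that deposited table, with a 95% interval from −0.18 to 0.30. For Thbs1 that interval ran from 0.32 to 0.68, and the difference between the 2 genes was not tested.

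Of the 5 mural markers, 2 rose in Aβ+DFMO against Aβ, where 4.0% of all genes were called higher. The part of mural cells in the Thbs1 value was not tested. Acta2 (smooth muscle actin) and Myh11 (smooth muscle myosin) rose, with log2 ratios of 0.28 and 1.37 in Aβ+DFMO against Aβ in the authors' deposited table. Cnn1 (0.14), Tagln (−0.0024) and Rgs5 (−0.26) were not called there. Acta2 and Myh11 passed again, at 0.29 and 1.54, with the trend of the log2 ratio with transcript GC content taken out. In bulk RNA, fewer or more cells of a type and less or more RNA per cell cannot be told apart.

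Ncan encodes neurocan and lies on chromosome 8 at 70093085 to 70120873 (minus strand). The authors' deposited table gave means of 14077 units in Aβ+DFMO, 24124 in Aβ and 20723 in Control. Aβ+DFMO was the lowest of the groups and Aβ the highest. The log2 ratio of Aβ+DFMO to Aβ was −0.78 in the authors' deposited table (implied standard error 0.261, adjusted p = 0.0364), and that of Aβ to Control 0.22 (implied standard error 0.212) and was not called. Its implied error was large for its level. The implied standard error in Aβ against Control was above that of 97.3% of the 372 genes with a mean within 2-fold of its own, whose median was 0.0756. Its 95% interval for Aβ+DFMO against Aβ ran from −1.29 to −0.27, although an estimated 1889 reads stood behind the Aβ+DFMO value. With the same trend taken out, Ncan no longer passed (−0.50, adjusted p = 0.582).

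Beside Ncan, 5 of 7 oligodendrocyte lineage markers fell in Aβ+DFMO against Aβ in the authors' deposited table, where 5.18% of all genes were called lower, and the median log2 ratio of the 7 was −1.17. They were Mbp, Sox10, Olig1, Olig2 and Cspg4, and neither Mog (−0.93) nor Pdgfra (−1.28) was called there. After removal of the GC trend only 2 of the 7 passed, Mbp (−1.50) and Sox10 (−1.21), while Olig1 stood at −0.32 (adjusted p = 0.0600), Olig2 at −0.18 (adjusted p = 0.813) and Cspg4 at −0.67 (adjusted p = 0.462). Of the 9 astrocyte markers, 3 fell in the authors' deposited table: Aldoc by 0.99, Aldh1l1 by 0.68 and Gfap by 0.47. With the GC trend taken out Aldoc (−0.88) and Aldh1l1 (−0.44) passed again, Gfap did not (−0.17, adjusted p = 0.738), and Slc1a3 did (−0.37, adjusted p = 0.0107). The part of these cells in the Ncan value was not tested.

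**Figure D2:**
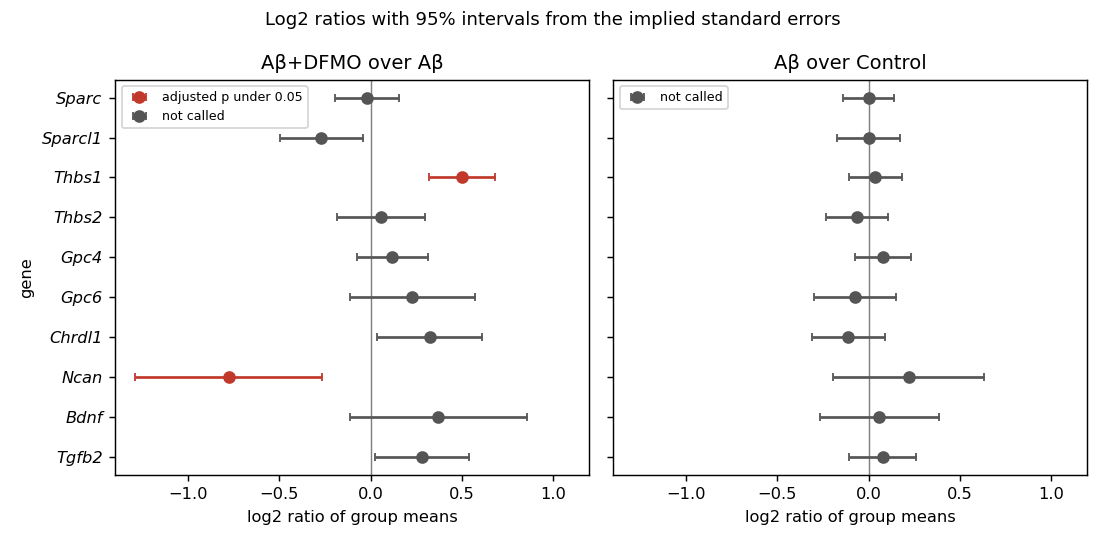
Log2 ratio of group means for each gene in Aβ+DFMO over Aβ (left) and Aβ over Control (right), with bars for 95% intervals from the implied standard errors and genes past an adjusted p of 0.05 in red. Thbs1 (0.50) and Ncan (−0.78) are the 2 called genes on the left, and every bar on the right crosses 0.

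Sparc and Sparcl1 are related matricellular genes, on chromosome 11 at 55394500 to 55423183 and chromosome 5 at 104079111 to 104113733 (both minus strand). Sparc, the antagonist, was among the most abundant transcripts of the cultures, ranking 7, 5 and 6 of 18783 genes in Aβ+DFMO, Aβ and Control. Its means were 129395, 131067 and 131061 units in these groups in the authors' deposited table. They differed by far less than their error: the log2 ratio was −0.02 in Aβ+DFMO against Aβ and 0.00 in Aβ against Control in that deposited table, with implied standard errors of 0.0893 and 0.0724. Sparcl1, the synaptogenic hevin gene, had 8496 units in Aβ+DFMO, 10246 in Aβ and 10245 in Control in the authors' deposited table. Aβ and Control were level and Aβ+DFMO was lower by 0.27 on the log2 scale, which missed the threshold (p = 0.0196, adjusted p = 0.132 in the authors' deposited table). The 95% interval of that log2 ratio ran from −0.50 to −0.04.

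Neither of the 2 synaptogenic glypican genes was called. Gpc4, on chromosome X at 52053021 to 52165252 (minus strand), had means of 19935 units in Aβ+DFMO, 18361 in Aβ and 17380 in Control in the authors' deposited table. The values of Gpc6, on chromosome 14 at 116925315 to 117976544 (plus strand), were 1319, 1125 and 1184 units there. The log2 ratios of Aβ+DFMO to Aβ in the authors' deposited table were 0.12 (adjusted p = 0.565) for Gpc4 and 0.23 (adjusted p = 0.513) for Gpc6. For Gpc6 the 95% interval, from −0.11 to 0.57, spans a rise as large as that of Thbs1. In Aβ against Control they were 0.08 and −0.07 in the authors' deposited table.

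Chrdl1, Bdnf and Tgfb2 had their highest mean in Aβ+DFMO, and none of the 3 passed. Chrdl1, on chromosome X at 143285674 to 143394262 (minus strand), had 2437 units in Aβ+DFMO, 1947 in Aβ and 2103 in Control in the authors' deposited table. Its log2 ratio of Aβ+DFMO to Aβ was 0.32 in the authors' deposited table (p = 0.0270, adjusted p = 0.162). Tgfb2, on chromosome 1 at 186622792 to 186705989 (minus strand), had 3279 units in Aβ+DFMO, 2694 in Aβ and 2555 in Control in the authors' deposited table. That is a log2 ratio of Aβ+DFMO to Aβ of 0.28 in the authors' deposited table (p = 0.0309, adjusted p = 0.177). Bdnf, on chromosome 2 at 109674700 to 109727007 (plus strand), was the scarcest of the 10 genes. It had 678 units in Aβ+DFMO, 524 in Aβ and 504 in Control in the authors' deposited table, the first from about 91.0 reads. Its log2 ratio of Aβ+DFMO to Aβ of 0.37 in the authors' deposited table (adjusted p = 0.429) carried an implied standard error of 0.248. Counting alone, from the estimated reads of the shallow library, gives a standard error of about 0.151. Standard errors do not add, so this is not a share of the first.

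With Aβ alone the authors' DESeq2 test called none of the 10 genes, and 0 had an unadjusted p under 0.05. Log2 ratios in the authors' deposited table ran from −0.11 (Chrdl1) to 0.22 (Ncan). Of these, 7 lay above 0 and 3 below, with Sparc and Sparcl1 among the 7 though both round to 0.00. With the GC trend taken out, 5 lay above 0 and 5 below. DESeq2 p-values without adjustment for the 10 deposited log2 ratios ran from 0.277 to 0.999. Their 95% intervals bound the ratio of Aβ to Control between 0.906 and 1.103 for Sparc, 0.928 and 1.13 for Thbs1, and 0.887 and 1.13 for Sparcl1, but only between 0.873 and 1.55 for Ncan. Over all genes just 1.72% of the p-values of this comparison were under 0.05 (324 genes), fewer than an even spread of p-values gives. Taken over all genes, scarce ones included, the implied errors may thus be too large. Whether those of the 10 genes are too large was not tested. Against Control, with no test, the log2 ratio of the Aβ+DFMO mean was 0.54 for Thbs1 and −0.56 for Ncan. It was 0.43 for Bdnf, 0.36 for Tgfb2, −0.27 for Sparcl1 and between −0.02 and 0.21 for the other 5 genes. With the GC trend taken out it was 0.16 for Bdnf and −0.29 for Ncan, and the sign turned for Sparc, at 0.11 after −0.02, and for Chrdl1, at −0.06 after 0.21.

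Divided by the length of the longest coding transcript, the level in Aβ was 56986 units per kb for Sparc, followed by Gpc4 (6926), Thbs1 (5429), Sparcl1 (3714) and Ncan (3353). A second tier held Thbs2 (577 units per kb), Tgfb2 (527), Chrdl1 (475) and Gpc6 (323), and Bdnf (123) came last. In Aβ+DFMO the order of Gpc4 and Thbs1 was turned, at 7520 and 7684 units per kb, and so was that of Thbs2 and Tgfb2, at 600 and 641. Ncan stood at 1957 units per kb in Aβ+DFMO, against 2880 in Control. In Control, Chrdl1 (514) stood above Tgfb2 (499), while the rest of the order was as in Aβ. None of these neighbours could be tested against each other, since no error of a level was used here.

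The log2 ratio of Aβ+DFMO to Aβ varied with the base composition of the transcript. Over the 11701 genes with a mean of at least 200 units and a GC value, Spearman's rho with GC content was −0.71. Pearson's r was −0.67. In Aβ against Control the same measures were 0.12 and 0.09. Both are across genes, and genes are not replicates. Transcript GC content of the 10 genes ran from 40.9% (Bdnf) and 41.0% (Chrdl1) to 52.5% (Sparc) and 55.1% (Ncan), and across them rho was −0.55 (n = 10, all from the same libraries). Chrdl1 and Bdnf lay near other genes of their GC content: the median log2 ratio of the 585 genes between 39.8% and 41.5% was 0.32. With the trend taken out, their ratios were 0.03 and 0.07. A trend in coding GC content, chosen after seeing the data, left them at 0.17 and 0.40 instead. For Bdnf, coding GC content was 52.1%, against 40.9% for the transcript. With the transcript GC trend taken out, Tgfb2 stood at 0.18 and Sparcl1 at −0.32 (adjusted p = 0.182), and Sparc moved to 0.12. Thbs1 lay off the trend. It remained called at 0.52 (adjusted p = 6.22e-06) and lay above 98.3% of the 585 genes between 49.6% and 50.4% GC. Gpc6 had nearly the same GC content as Thbs1, 49.9% each, and a smaller log2 ratio of 0.23. Ncan lay above only 6.84% of the 585 genes between 54.3% and 55.3% GC, of which 13.3% were called lower.

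**Figure D3:**
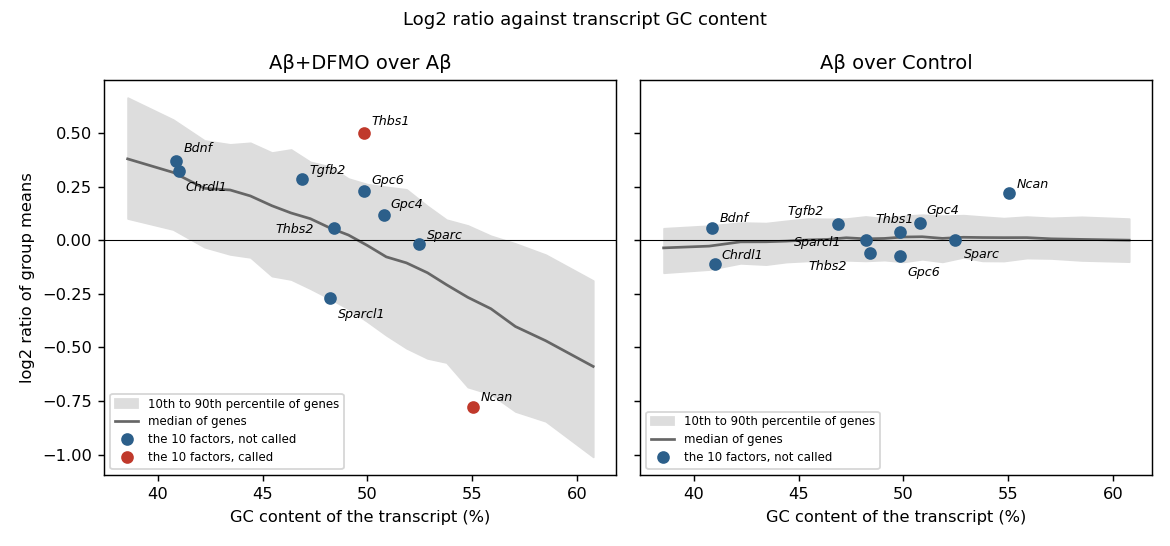
Log2 ratio of group means against transcript GC content (%) in Aβ+DFMO over Aβ (left) and Aβ over Control (right), for the 10 genes (points, called genes in red) over the median and the 10th to 90th percentile of genes with a mean of at least 200 units in 20 GC classes. On the left the median falls with GC content, Thbs1 lies above the grey band and Ncan just below it. On the right the median stays near 0.

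Related genes were followed through 9 lists of family members, partners and targets, with 101 different genes measured. In Aβ+DFMO against Aβ, 2 of them rose and 16 fell in the authors' deposited table, and their median log2 ratio was −0.12. The called share was 17.8%, beside 9.18% of all genes and 14.4% of genes with a mean of at least 200 units. The lists were chosen with earlier results of these data known, so their shares are no independent test. With the GC trend taken out, 4 of these 18 still passed.

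Among receptors and partners, 1 of 23 rose and 5 fell in Aβ+DFMO against Aβ, where 4.0% of all genes were called higher and 5.18% lower. Cd36, a scavenger receptor that binds thrombospondin-1, fell by 1.41 on the log2 scale in the authors' deposited table, to 1073 units in Aβ+DFMO against 2851 in Aβ, and it was 1544 in Control. The postsynaptic adhesion gene Nlgn2 fell by 1.04, and Ptprs and Ptprf, presynaptic receptor phosphatases of the family that binds GPC4, by 0.60 and 0.50 in the authors' deposited table. Cacna2d1, the α2δ-1 receptor of thrombospondins, rose by 0.56 (adjusted p = 0.0122) and Ntrk2, the receptor of BDNF, fell by 0.36 (adjusted p = 0.00869) in the authors' deposited table; both were named after their values were seen. Only Cd36 (−1.79) and Ntrk2 (−0.39) of these 6 passed with the GC trend taken out.

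Among matrix relatives and partners of neurocan, 2 of 9 measured genes fell and none rose, where 5.18% of all genes were called lower. In that list Tnr (tenascin-R) fell by 0.89 and Bcan (brevican) by 0.77 in the authors' deposited table. Tnr passed again with the GC trend taken out (−0.97) and Bcan did not (−0.20, adjusted p = 0.873). Tnr had 1997 units in Aβ+DFMO, 3706 in Aβ and 3740 in Control in the authors' deposited table, so its Aβ and Control means were level. Of 4 other glypicans Gpc1 fell by 0.68 in the authors' deposited table, and of 10 neurotrophic factors Vgf, a secreted precursor of neuropeptides, fell by 0.81. Neither passed with the GC trend taken out.

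The 3 lists of TGF-β and BMP genes had 9, 10 and 11 genes measured, with Ltbp2 in 2 of the lists. In Aβ+DFMO against Aβ 2 of these genes were called, beside 9.18% of all genes and 14.4% of genes with a mean of at least 200 units. Of 10 ligands, latency proteins and activators, Ltbp3, which holds latent TGF-β, fell by 0.74 in the authors' deposited table. Among 11 response genes Skil, a SMAD repressor that TGF-β induces, rose by 0.51 in the authors' deposited table. Neither passed with the GC trend taken out. Then Tgfb3 (0.55) and Ltbp2 (0.52), named after their values were seen, passed in their place, at 0.38 and 0.06 before in the authors' deposited table. None of the 9 measured BMP ligands and antagonists and of the 9 SPARC and thrombospondin relatives passed the authors' DESeq2 test. In that test 3 and 1 of them had an unadjusted p under 0.05, beside 20.9% of all genes. In each of these lists the estimated reads in Aβ+DFMO went down to about 2.0, which leaves little room for a call.

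Of 17 other secreted modulators 6 fell in Aβ+DFMO against Aβ and none rose, where 5.18% of all genes were called lower and 4.0% higher. Mfge8, a bridge for phagocytosis, fell by 0.77, the protease inhibitor Cst3 by 0.52, the growth factor Tgfa by 1.22 and Wnt7a by 0.84 in the authors' deposited table. Tgfa (−1.16) alone of the 6 passed with the GC trend taken out. In Aβ against Control, the calls in the 9 lists were Cd36 (0.88) and Mfge8 (0.43) in the authors' deposited table. They were 2.0% of the genes measured beside 0.287% of all genes, in lists chosen with earlier results of these data known. In the same comparison 4 of the 8 microglia and macrophage markers fell in the authors' deposited table: P2ry12 (−1.37), Tmem119 (−1.33), Csf1r (−0.80) and C1qa (−0.62). Their part in the values of Cd36 and Mfge8 was not tested.

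**Figure D4:**
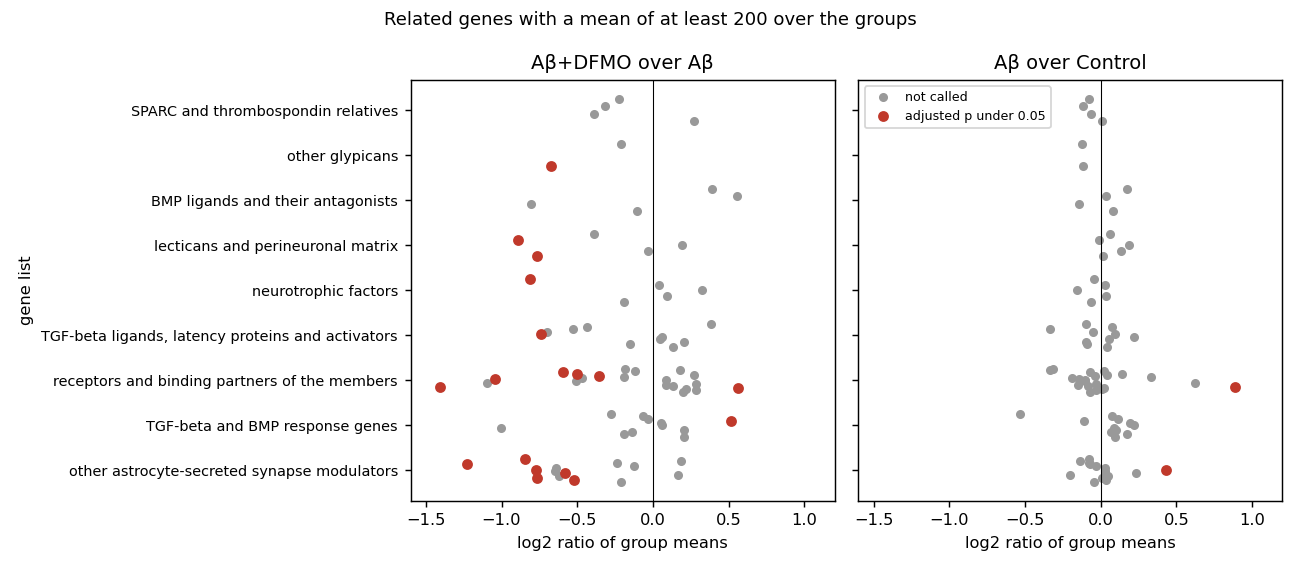
Log2 ratio of group means for the genes of the 9 lists with a mean of at least 200 units over the groups, in Aβ+DFMO over Aβ (left) and Aβ over Control (right), 1 point for each gene and red where the adjusted p was under 0.05. On the left, 16 of the 18 called genes lie below 0, and on the right 2 genes were called.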

How the data were processed

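Polyadenylated RNA of 5 libraries was sequenced as read pairs, per the labels' protocols. The submitters' processing notes name STAR 2.7.3a, Partek, DESeq2 and FastQC and the builds mm10 and GRCm39, without roles. Annotation, counting and low-value filter: not given in the sources used here. The deposited gene table holds least-squares means per group, a normalized signal whose scaling the file headers do not name. It also holds the authors' ratios, log2 ratios, p-values and adjusted p-values from DESeq2. Reads per library and the percent within exons come from a deposited summary in which 3 of 5 libraries could be matched to their labels, per the file headers; its read numbers are taken as a plain signal. With no values per library, no model of counts was refitted. The authors' tests over 18783 genes were used at an adjusted p under 0.05, as the design foresaw. Log2 ratios changed by a trend, centring or scaling were retested as described below. The deposited log2 ratios were checked to be those of the means, and their adjustment was checked to follow Benjamini and Hochberg over all genes.

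The implied standard error is the size of the log2 ratio over the normal quantile that its two-sided p corresponds to, and 95% intervals rest on it. Transcript length, GC content and coordinates come from the longest coding transcript of GENCODE M21 (GRCm38), matched by symbol for 18592 genes and all 10 factors. The GC trend was fitted by lowess (fraction 0.3, statsmodels 0.14.6) over genes with a mean of at least 200 units and tested on simulated data. For the retest each changed log2 ratio was divided by its unchanged implied standard error. That gave a two-sided normal p, which was adjusted anew by Benjamini and Hochberg. Error of the fitted trend was left out, and the transcript GC setting covered only the 18592 genes with a GC value. Reads in the Aβ+DFMO library were estimated from its low values, of which 80.4% of 7316 were whole multiples of 1 unit size within 0.05 of a read; this was too few for a count test. Such estimates and intervals cover counting or modelled error only. The 10 genes and all lists were chosen with earlier results of these data known. One listed marker gene is not reported here. All 10 genes are named, with up to 4 called genes of the smallest adjusted p from each of the 9 lists of related genes in a comparison; marker genes of cell types are named outside that rule.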

Additional observations from a re-analysis of the deposited data

How the results depend on the processing

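The absence of calls among the 10 genes in Aβ against Control held under each of the 8 alternatives with a test. Thbs1 stayed called in Aβ+DFMO against Aβ under the same 8, at log2 ratios of 0.46 to 0.63 and adjusted p from 5.82e-09 to 4.76e-05. Cutoffs of 0.1 and 0.01 reuse the deposited adjusted p-values, which fixed these outcomes under them in advance. The alternatives share the same data and are not independent. Ncan was not called at an adjusted p under 0.01 (−0.78), with the transcript GC trend taken out (−0.50) or with a trend in coding GC content taken out (−0.39, chosen after seeing the data), so 1 of the 10 genes passed under each of these in place of 2. The adjusted p of Ncan ran from 0.0231 to 0.603 over the alternatives. Over all genes these settings gave 887, 292 (155 higher, 137 lower) and 511 (332 higher, 179 lower) calls in place of 1724 (751 higher, 973 lower); of the 292, 213 had been called before. Dividing the group means by their sum gave 557 higher and 1127 lower calls in Aβ+DFMO against Aβ, and 27 and 27 in place of 21 and 33 in Aβ against Control. A trend with transcript length, also chosen after seeing the data, changed no call among the 10. In Aβ+DFMO against Control the GC trend moved Sparc to 0.11, Chrdl1 to −0.058, Ncan to −0.29 and Bdnf to 0.16. No paired analysis was possible because the gene table carries group means and no replicate numbers, and for the same reason leaving out replicates was not run. Depth limits the Aβ+DFMO values most for Bdnf (about 91.0 reads), Gpc6 (177) and Chrdl1 (327).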
